A study of Mus musculus with 2 samples.

Results

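The globin genes were followed in a Slide-tags single-nucleus library of the mouse brain at embryonic day 14 (E14), with the adult mouse hippocampus as the contrast. The 7 members were chosen by name from the 32285 genes of the deposited tables and all 7 were present. The 3 embryonic genes are Hbb-y, Hbb-bh1 and Hba-x, and the 4 adult-type genes are Hbb-bs, Hbb-bt, Hba-a1 and Hba-a2. Slide-tags labels the nuclei of a frozen tissue section with spatial barcodes and then profiles them as ordinary droplet single-nucleus RNA-seq, in which a unique molecular identifier (UMI) counts 1 captured molecule. The E14 group was a sagittal brain section of a C57BL/6J embryo, bought frozen whole after the pregnant mouse had been perfused with saline. The adult group was 1 male C57BL/6J mouse at 56 days of age, itself perfused to clear the blood. Neither group carried a transgene or received a treatment. With 1 library per tissue nothing was tested, and age, tissue, perfusion and library cannot be told apart. Intervals in brackets are 95% exact intervals and cover counting error only.

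After barcodes under 500 UMIs or at 5% mitochondrial UMIs and above had been removed, 9036 barcodes with 58923882 UMIs remained at E14 and 1609 barcodes with 15346746 UMIs in the adult. The median barcode held 4204 UMIs at E14 and 6607 in the adult. A total of 1 barcode sequence occurred in both libraries. Clusters made without the 7 globins gave 9 named classes at E14, among them radial glia-like, cortical excitatory-like and thalamic-like ones, and 11 clusters that stayed unnamed with 56.4% of the barcodes.

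Haemoglobin is built from alpha-type and beta-type globin chains, and mice change the genes they use for both during gestation. Primitive erythroid cells, which arise in the yolk sac and enter the circulation with their nuclei, use Hbb-bh1 and Hbb-y as beta-type genes and Hba-x beside the adult alpha genes. Definitive erythroid cells, made in the fetal liver and later in the bone marrow, use Hbb-bs, Hbb-bt, Hba-a1 and Hba-a2, and lose their nuclei as they mature. Mid-gestation blood holds both kinds of cell.

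In the GENCODE annotation of GRCm38, the build of the files (mm10), the beta-type genes lie on chromosome 7 on the minus strand and the alpha-type genes on chromosome 11 on the plus strand. Hbb-y lies at chr7:103851749-103853216, Hbb-bh1 at chr7:103841637-103843164, Hbb-bs at chr7:103826534-103828096 and Hbb-bt at chr7:103812524-103813996. Hba-x lies at chr11:32276400-32278116, Hba-a1 at chr11:32283511-32284465 and Hba-a2 at chr11:32296489-32297298. Each gene has 3 exons in its longest model, and no other annotated gene overlaps a member. The promoters of 6 of the 7 members are in the RefSeq table of GRCm38.p6, and the 110 bases before each RefSeq start are printed so that the promoters of the embryonic and adult-type genes can be compared. Capitals mark TATAA (core of the TATA box), CCAAT (the CCAAT box), CACCC (the box bound by KLF1) and GATAA (the site bound by GATA1), each on either strand, and no 2 matches overlap.
Hbb-y: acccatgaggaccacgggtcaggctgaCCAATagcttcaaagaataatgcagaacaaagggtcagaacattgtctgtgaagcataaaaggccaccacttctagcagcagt
Hba-x: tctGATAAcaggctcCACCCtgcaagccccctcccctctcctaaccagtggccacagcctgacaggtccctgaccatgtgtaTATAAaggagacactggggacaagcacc
Hbb-bs: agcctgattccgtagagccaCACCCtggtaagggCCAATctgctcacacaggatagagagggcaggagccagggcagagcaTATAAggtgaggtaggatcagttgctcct
Hbb-bt: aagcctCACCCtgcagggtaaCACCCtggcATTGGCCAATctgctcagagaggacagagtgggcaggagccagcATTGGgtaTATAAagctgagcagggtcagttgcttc
Hba-a1: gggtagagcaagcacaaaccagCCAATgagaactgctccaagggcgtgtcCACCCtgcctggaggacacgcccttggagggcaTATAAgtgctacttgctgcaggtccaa
Hba-a2: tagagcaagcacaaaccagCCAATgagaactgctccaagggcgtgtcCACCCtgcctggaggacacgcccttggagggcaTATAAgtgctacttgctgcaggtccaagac
These stretches are chr7:103853208-103853317 (minus strand) for Hbb-y, chr11:32276490-32276599 (plus) for Hba-x, chr7:103827929-103828038 (minus) for Hbb-bs, chr7:103813924-103814033 (minus) for Hbb-bt, chr11:32283562-32283671 (plus) for Hba-a1 and chr11:32296382-32296491 (plus) for Hba-a2.

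TATAA was found in 5 of these 6 stretches and in 10.9% of all 32851 promoters in the same window. It began 27 to 30 bases before the start in each of the 5. Hbb-y held no exact TATAA, but a run of ataaaa begins within that range. CCAAT was found in all but Hba-x, against 20.2% of promoters, and CACCC in all but Hbb-y, against 29.6%. Hba-x alone among the 6 held GATAA, which 9.43% of promoters held. With a shift of 3 bases, the stretches of Hba-a1 and Hba-a2 were identical over all 107 shared positions, while those of Hbb-bs and Hbb-bt were identical at 80 of 109 positions. Only exact matches within the 110 bases were sought, so variants of a box and boxes cut by the edge are not marked. The Hbb-y stretch opens with accc, which are the last letters of CACCC. A match of letters is a description and does not show binding, and a missing match does not show that a box is lacking.

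Globin transcripts made up 0.0572% of the UMIs at E14, 33730 in all, or 572 (566 to 579) UMIs per 1000000 UMIs of the library (CPM). Hbb-y, the main beta-type gene of late primitive cells, was the most counted member with 12070 UMIs, 205 (201 to 209) CPM. Hbb-bh1, the earlier beta-type gene, had 51 UMIs, 0.866 (0.644 to 1.14) CPM, or 0.421% of the embryonic beta-type UMIs. Hba-x, the embryonic alpha-type gene, had 1494 UMIs, 25.4 (24.1 to 26.7) CPM. Among the adult-type genes, Hba-a1 had 8872 UMIs (151 CPM), Hbb-bs 8105 (138 CPM) and Hbb-bt 2949 (50.0 CPM). Hba-a2 had 189 UMIs, 3.21 (2.77 to 3.70) CPM. The levels are counts of 3′ ends with intronic reads included and carry no scaling by gene length.

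Of all globin UMIs at E14, 40.4% (39.8 to 40.9) came from the 3 embryonic genes. The share differed between the chains. Hbb-y and Hbb-bh1 gave 52.3% (51.7 to 52.9) of the beta-type UMIs, whereas Hba-x gave 14.2% (13.5 to 14.8) of the alpha-type UMIs. Alpha-type genes together gave 31.3% (30.8 to 31.8) of the globin UMIs.

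In the adult hippocampus the 3 embryonic genes had 0 UMIs each, for which the exact interval reaches 0.240 CPM. Against a floor of 3 counts over the library, 0.195 CPM, Hbb-y was 1048-fold higher at E14, Hba-x 130-fold and Hbb-bh1 4.43-fold. The lower ends of the exact intervals of the ratios were 852-fold, 105-fold and 3.47-fold, in the same order. The adult-type genes had 53 (Hbb-bs), 22 (Hbb-bt), 31 (Hba-a1) and 24 (Hba-a2) UMIs in the adult library. Their levels at E14 were 39.8-fold (30.4 to 53.2), 34.9-fold (23.0 to 55.8), 74.5-fold (52.5 to 110) and 2.05-fold (1.34 to 3.28) higher, respectively. All 7 members thus passed a fold of 2, as did 23.8% of the 20842 genes with at least 20 UMIs in both libraries together. For Hba-a2 the pass rested on the E14 barcodes richest in globin, since without the top 1% of barcodes its ratio was 1.04 (0.657 to 1.70).

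Globin in the adult library was almost the content of 1 barcode. It held 122 of the 130 globin UMIs among its 22100 UMIs, namely 52 of Hbb-bs, 21 of Hbb-bt, 30 of Hba-a1 and 19 of Hba-a2, and it fell in an astrocyte-like cluster. The other 8 UMIs were spread over 7 barcodes with 1 or 2 each. Without the rich barcode, the summed adult-type level was 654-fold higher at E14, against 40.3-fold (33.9 to 48.3) with it, and Hba-a2 was 9.83-fold higher from 5 adult UMIs. In total 8 of 1609 adult barcodes, 0.497% (0.215 to 0.977), had any globin UMI, against 71.4% (70.5 to 72.3) at E14.

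**Figure D1:**
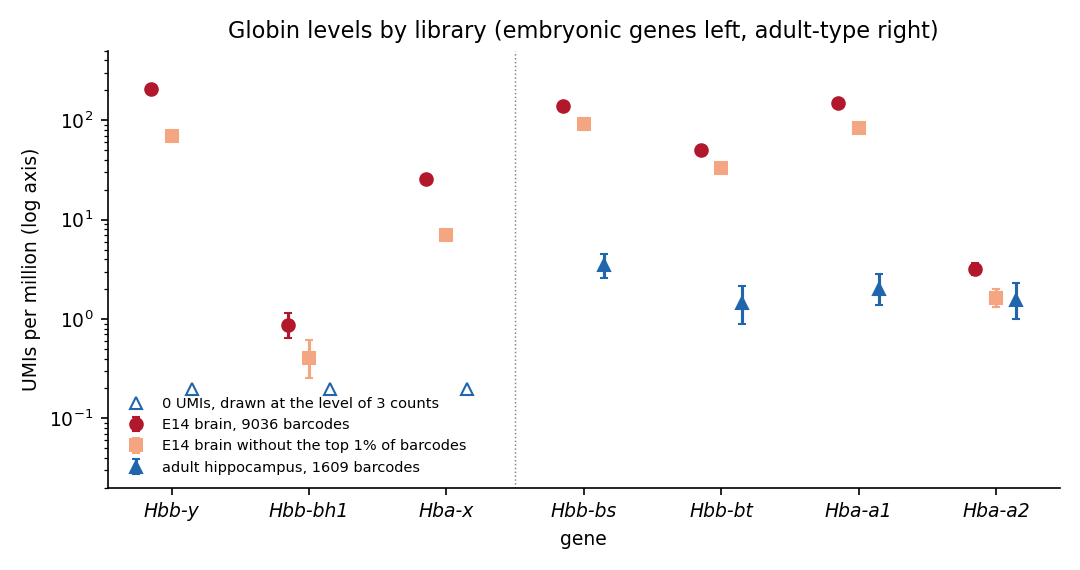
Level of each globin gene as CPM (UMIs per 1000000, log axis) in the E14 library, in the E14 library without its top 1% of barcodes by globin UMIs, and in the adult hippocampus, with exact Poisson 95% intervals. Open triangles stand at the level of 3 counts for the embryonic genes, which had 0 UMIs in the adult, and the Hba-a2 point of the adult lies within the interval of the E14 point without the top 1%.

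The adult alpha genes were split unequally at E14 and more evenly in the adult. Hba-a2 gave 2.09% (1.80 to 2.40) of the UMIs of Hba-a1 and Hba-a2 at E14, and 43.6% (30.3 to 57.7) in the adult, where it had 24 of 55 UMIs. In the single rich adult barcode the share was 38.8% (25.2 to 53.8). At E14 it was 2.27% (1.84 to 2.76) in the barcodes richest in globin and 1.92% (1.55 to 2.35) in the rest, so the low share was found at both ends. Hbb-bt, the minor adult beta gene, gave 26.7% (25.9 to 27.5) of Hbb-bs and Hbb-bt at E14 and 29.3% (19.4 to 41.0) in the adult, which are not distinguishable at this depth. The Hba-a2 values are uncertain, since 57.3% of the 90-base windows in the last 300 bases of the Hba-a1 transcript also occur in Hba-a2, and 49.8% of those of Hba-a2 in Hba-a1. The authors' counts came from Cell Ranger 6.1.2 for the adult and 7.0.1 for E14, and the part of that difference was not tested. For Hbb-bs and Hbb-bt the shared windows were 24.6% and 24.2%.

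At E14 the globin UMIs were very unevenly spread over barcodes. Of the 9036 barcodes, 2583 had 0, 2769 had 1 and 1687 had 2. The 91 barcodes with the most, the top 1%, were set apart by this count, with 38 globin UMIs in the last barcode inside and 37 in the first outside. They held 52.2% of all globin UMIs, 68.3% of the embryonic and 41.3% of the adult-type UMIs. A set of 5 barcodes, with 2200, 2047, 1631, 1240 and 1194 globin UMIs, held 39.3% of the embryonic UMIs of the library. The other 8945 barcodes had a mean of 1.80 and a median of 1.

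The composition changed with the number of globin UMIs. Barcodes with 1 globin UMI were 25.0% (23.4 to 26.7) embryonic, those with 2 were 25.3% (23.9 to 26.8), those with 3 to 5 were 25.4% (24.2 to 26.6) and those with 6 to 10 were 26.6% (24.7 to 28.6). These 4 intervals overlap. Barcodes with 11 to 20 were 30.1% (27.8 to 32.5) embryonic, those with 21 to 37 were 36.6% (33.9 to 39.5) and those with 38 to 99 were 34.1% (32.5 to 35.7). The 29 barcodes with 100 or more were 57.6% (56.8 to 58.4). That share is pooled over UMIs, so the 5 barcodes with the most globin weigh most in it. The Hba-x share of alpha-type UMIs moved with the beta-type share, from 7.42% (5.80 to 9.33) at 1 UMI to 22.7% (21.4 to 23.9) at 100 or more. The Hbb-bt share of the adult beta genes stayed between 25.4% and 27.7% in all bands.

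**Figure D2:**
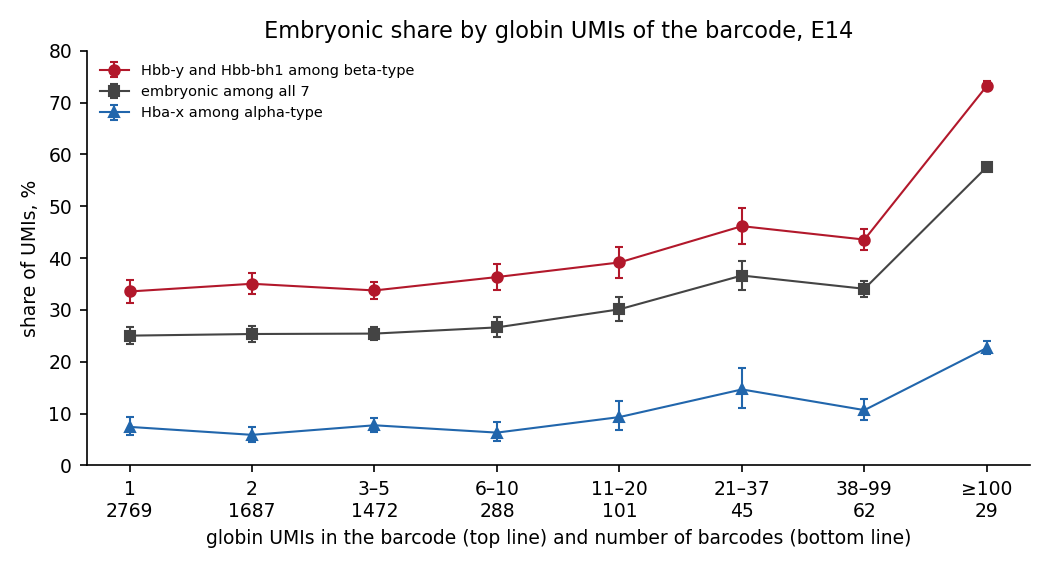
Embryonic share of globin UMIs, in percent, by the number of globin UMIs in the E14 barcode, with exact binomial 95% intervals, for all 7 genes, for the beta-type and for the alpha-type genes. The 3 lines are level up to 10 globin UMIs and stand highest in the 29 barcodes with 100 or more, at 73.2% for beta-type, 57.6% for all and 22.7% for alpha-type.

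The barcodes richest in globin did not share 1 composition. Over the 91 barcodes the embryonic share of beta-type UMIs ran from 0 to 98.6%, with a median of 45.8%, whereas the other barcodes pooled gave 35.8% (34.9 to 36.7). The exact interval of a barcode lay above 35.8% in 43 of the 91, below it in 30 and around it in 18. In 24 barcodes at least 80% of the beta-type UMIs were embryonic, in 27 at most 20% were, and 40 lay between. The 2 limits were set after the values had been seen.

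Single barcodes show both ends. The barcode with the most globin held 1473 UMIs of Hbb-y, 0 of Hbb-bh1, 189 of Hba-x, 105 of Hbb-bs, 57 of Hbb-bt, 368 of Hba-a1 and 8 of Hba-a2. The fourth held 982 of Hbb-y against 10 of Hbb-bs and 4 of Hbb-bt, with 95 of Hba-x and 146 of Hba-a1. At the other end, the fifteenth held 95 of Hbb-bs, 40 of Hbb-bt, 64 of Hba-a1 and 1 of Hba-a2, and 0 of all 3 embryonic genes. In all, 9 of the 91 barcodes had 0 embryonic UMIs, with 40 to 200 adult-type UMIs each.

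The alpha-type genes, which played no part in that division, followed it. Hba-x gave 36.9% (34.8 to 38.9) of the alpha-type UMIs in the 24 barcodes with mostly embryonic beta-type UMIs and 1.76% (0.882 to 3.13) in the 27 with mostly adult ones. Over the 91 barcodes the Hba-x share of alpha and the embryonic share of beta had a Pearson r of 0.72. Over the 29 with at least 100 globin UMIs it was 0.83. These barcodes share 1 library and are given as a description. In the 24 barcodes Hba-a1 still had 1343 UMIs beside 802 of Hba-x, so the adult alpha gene was the larger alpha-type count at both ends. Alpha-type genes together gave 28.3% (27.3 to 29.3) of globin UMIs at the embryonic end and 30.3% (28.3 to 32.3) at the adult end. The Hbb-bt share of the adult beta genes was 30.0% (25.7 to 34.5) and 27.6% (25.2 to 30.0) in the same order.

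**Figure D3:**
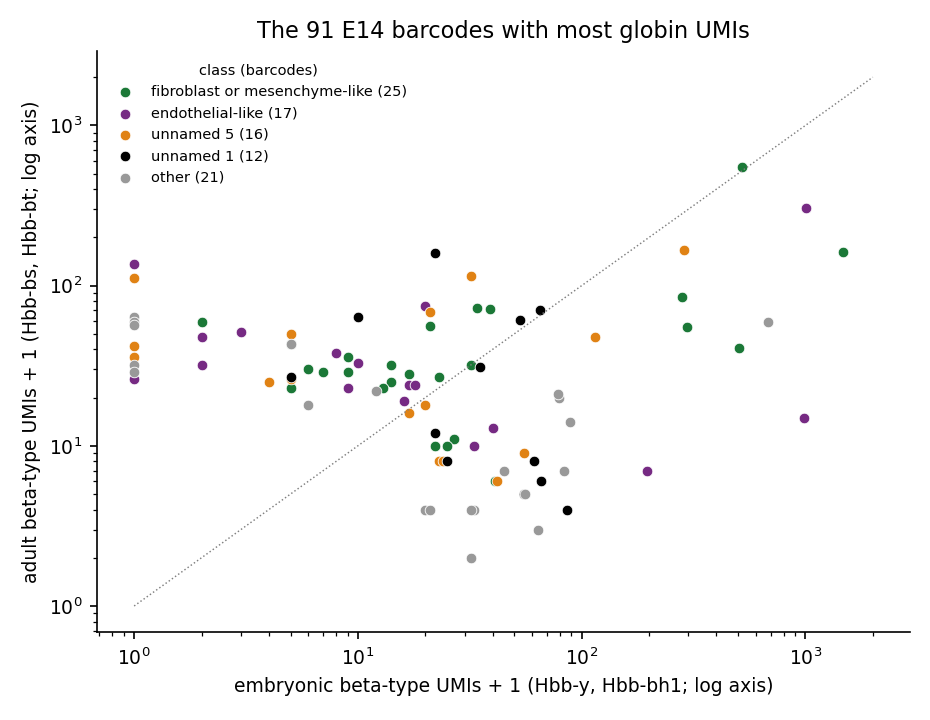
Embryonic (Hbb-y and Hbb-bh1) against adult (Hbb-bs and Hbb-bt) beta-type UMIs, each plus 1 on log axes, in the 91 E14 barcodes with the most globin UMIs, coloured by class, with a dotted line of equal counts. Points of each of the 4 coloured classes fall on both sides of the line, the 10 barcodes with 0 embryonic beta-type UMIs lie at the left edge, and the barcodes with the most globin lie at the lower right and along the line.

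By class, 25 of the 91 barcodes were fibroblast or mesenchyme-like, 17 endothelial-like, 16 in unnamed cluster 5 and 12 in unnamed cluster 1, so that these 4 groups held 70 of the 91 among their 2075 barcodes. Unnamed cluster 5 was the deepest, with a median of 12702.5 UMIs, and was led by Gm29260, Creb5 and Etl4, with Boc and Gli3 next. Unnamed cluster 1 was the shallowest, with a median of 722 UMIs, and was led by Ttr, the thyroid hormone carrier of the choroid plexus, and by mitochondrial and ribosomal protein genes. The 91 barcodes had 515 to 208500 UMIs with a median of 14526, against 4172 in the others. Of the 91, 11 had under 1000 UMIs, of which globin made up 9.51 to 41.3%, with a median of 15.6%. The highest-scoring 653 barcodes of the doublet caller Scrublet, the number expected from loading, held 12 of the 91 (13.2%) and 7.17% of the others. The part of doublets in the result was not tested beyond this.

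No cluster was erythroid-like under any of the 4 clusterings run. The erythroid list held 7 markers that were in the tables. Alas2, the erythroid enzyme of haem synthesis, was counted in 2808 barcodes of all classes at 53.5 to 108 CPM, and in 455 adult barcodes at 49.5 (46.1 to 53.2) CPM. A set of 5 markers, Slc4a1, Hemgn, Epb42, Klf1 and Gata1, had 230 UMIs together, 3.90 CPM, and at most 7 in a barcode. Their sum was 23.5 CPM in unnamed cluster 1 and between 1.67 and 5.47 in the other classes. At least 1 of their UMIs was found in 25 of the 91 barcodes richest in globin (27.5%) and in 1.63% of the others. These shares are not scaled for depth, and the 91 barcodes were deeper. As a level the sum was 21.1 CPM in the 91 and 3.21 CPM in the others. Of its 48 UMIs in the 91, 29 were of Slc4a1, 10 of Epb42, 5 of Hemgn and 2 each of Klf1 and Gata1.

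Among the named classes, summed globin was highest at 2947 (2884 to 3010) CPM in the fibroblast or mesenchyme-like class and 2107 (2051 to 2164) in the endothelial-like class. Radial glia-like barcodes had 535 (517 to 554) and microglia or macrophage-like barcodes 413 (363 to 468). The intervals of these 4 were clear of each other, but they take no account of UMIs that came together in 1 barcode. The fibroblast or mesenchyme-like value includes barcodes with 2200 and 1631 globin UMIs. The endothelial-like value includes barcodes with 2047 and 1240. The radial glia-like value rests in large part on 1 barcode with 1194 globin UMIs. Without the top 1% that class had 292 (279 to 307). Cajal-Retzius-like (312), choroid plexus-like (309), forebrain GABAergic-like (301) and thalamic-like (298) barcodes had intervals that met each other, and cortical excitatory-like barcodes were clear of them and lowest at 248 (234 to 262). Unnamed cluster 1, with its shallow barcodes, was above all of these at 3271 (3156 to 3389). Unnamed cluster 5, which held 16 of the 91 barcodes, had 362 (350.0 to 374).

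With the top 1% left out, unnamed cluster 1 was again highest at 1838 (1752 to 1928) CPM. The fibroblast or mesenchyme-like class fell to 557 (528 to 588), the endothelial-like class to 449 (419 to 480) and the microglia or macrophage-like class to 350 (304 to 401). The interval of the last met that of radial glia-like barcodes, and the other 6 named classes lay between 221 and 292 with none clear of its neighbour. The top barcodes held 83.9% of the globin UMIs of the fibroblast or mesenchyme-like class and 84.5% of those of the endothelial-like class. Over the named classes Hbb-y, for example, ran from 61.0 (44.5 to 81.7) CPM in Cajal-Retzius-like to 1317 (1275 to 1360) in fibroblast or mesenchyme-like barcodes. Without the top 1% the highest named class was the same at 152 (137 to 168), and the lowest was choroid plexus-like at 42.8 (34.7 to 52.3). Hbb-bs ran from 71.6 to 539 and Hba-a1 from 72.0 to 724 CPM over the named classes, both lowest in cortical excitatory-like and highest in fibroblast or mesenchyme-like barcodes. Hba-x followed the same upper end, at 157 (143 to 172). Hbb-bh1 was at 0 in 6 of the 20 classes and unnamed clusters.

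The embryonic share by class was close to level once the top 1% was left out. With all barcodes it was 52.3% (51.0 to 53.7) in endothelial-like, 50.2% (49.1 to 51.3) in fibroblast or mesenchyme-like and 46.7% (44.9 to 48.4) in radial glia-like barcodes, and as low as 22.6% in Cajal-Retzius-like ones. Only 2 of the 20 classes and clusters had an interval that held the library value of 40.4%. Without the top 1%, the shares lay between 22.4% and 30.4%, and 16 of 20 intervals held the pooled value of 26.7% (26.1 to 27.4). The endothelial-like share became 28.4% (25.4 to 31.6) and the radial glia-like share 25.3% (23.2 to 27.4). The lowest was choroid plexus-like at 22.4% (18.8 to 26.4), which lay below the pooled value, and the highest forebrain GABAergic-like at 30.4% (27.9 to 33.0), which lay above it.

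**Figure D4:**
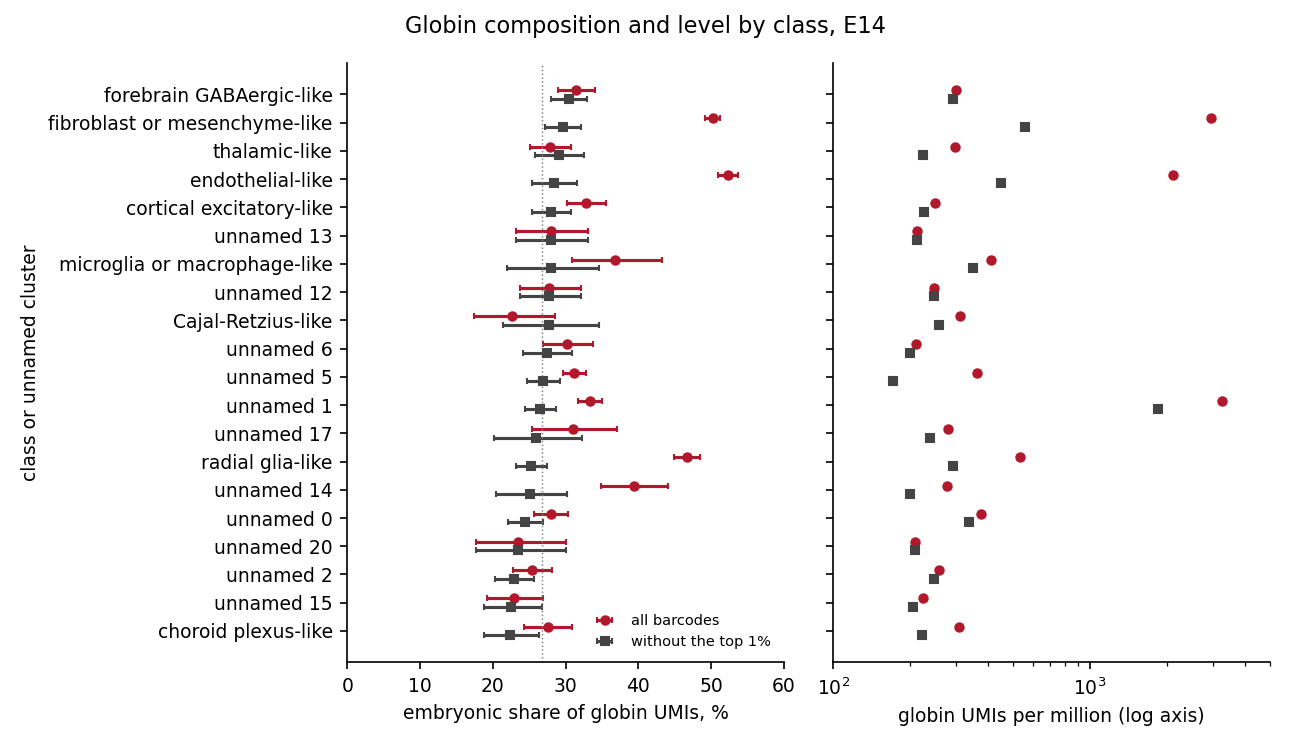
Embryonic share of globin UMIs in percent with exact binomial 95% intervals (left) and globin CPM on a log axis (right) for the 9 named classes and 11 unnamed clusters at E14, with all barcodes (circles) and without the top 1% by globin UMIs (squares). The dotted line is the pooled share without the top 1%, 26.7%, and the squares lie between 22.4% and 30.4% whereas circles reach 52.3%.

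Globin UMIs were also found in neuronal classes, which are not erythroid. In barcodes thinned to 1000 UMIs, with 1039 shallower ones left out, 28.6% (27.6 to 29.6) had a globin UMI, and 71.4% did before thinning. The share was 25.3% in cortical excitatory-like barcodes (median depth 5452 UMIs), 22.6% in thalamic-like (4802) and 29.3% in forebrain GABAergic-like (3699) barcodes. Shares at this level are not read as expression in those classes. It was 51.4% in fibroblast or mesenchyme-like (4047), 41.1% in endothelial-like (8024) and 39.5% in microglia or macrophage-like (4098) barcodes. Whether these UMIs came from inside or outside the nuclei was not tested.

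Without the top 1%, the number of globin UMIs per barcode changed little over the first 8 of 10 depth groups. Barcodes were ranked by their UMIs outside the 7 genes and divided into 10 equal groups. Mean UMIs per barcode rose from 661 in the first decile to 7310 in the eighth, while mean globin UMIs went from 1.35 to 1.64. In the ninth decile the mean was 2.20 and in the deepest 4.36, at 24534 UMIs per barcode. The deepest decile thus had 3.24-fold (3.04 to 3.46) the globin UMIs of the shallowest and 37.1-fold its UMIs. Over the same 2 deciles Malat1, a nuclear long non-coding RNA, was 84.2-fold higher, mitochondrial UMIs 7.66-fold and Ttr 14.9-fold. Embryonic and adult-type globins moved alike, at 3.36-fold (2.96 to 3.82) and 3.20-fold (2.97 to 3.46), and the embryonic share was 26.2% in the shallowest and 27.1% in the deepest decile.

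With all barcodes kept, the deepest decile had 16.9 globin UMIs per barcode and the shallowest 2.84, a ratio of 5.96 (5.71 to 6.21) against 39.3 for all UMIs. The embryonic genes then rose more, at 8.02-fold (7.48 to 8.61), than the adult-type genes at 4.87-fold (4.62 to 5.13). As a level, globin was 4298 CPM in the shallowest and 651 in the deepest decile, 6.60-fold (6.33 to 6.89) lower. All 7 members were 2-fold or more lower in CPM in the deepest decile, as were 16.6% of 17699 genes, and none was higher, as 7.46% of genes were. Without the top 1% this held for all 6 members with at least 20 UMIs in the 2 deciles, and the summed level was 11.4-fold (10.7 to 12.2) lower. Within each of the 20 classes and clusters, barcodes were divided into 4 equal groups by depth. Without the top 1%, the ratio of globin UMIs per barcode, deepest over shallowest, was 1.06 to 5.36 with a median of 1.99, and its interval lay below the ratio of all UMIs in 20 of 20, where that ratio was 3.41 to 15.8. With all barcodes it lay below in 17 of 20, and the ratio ran from 0.460 in unnamed cluster 1 to 48.1 in endothelial-like barcodes.

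**Figure D5:**
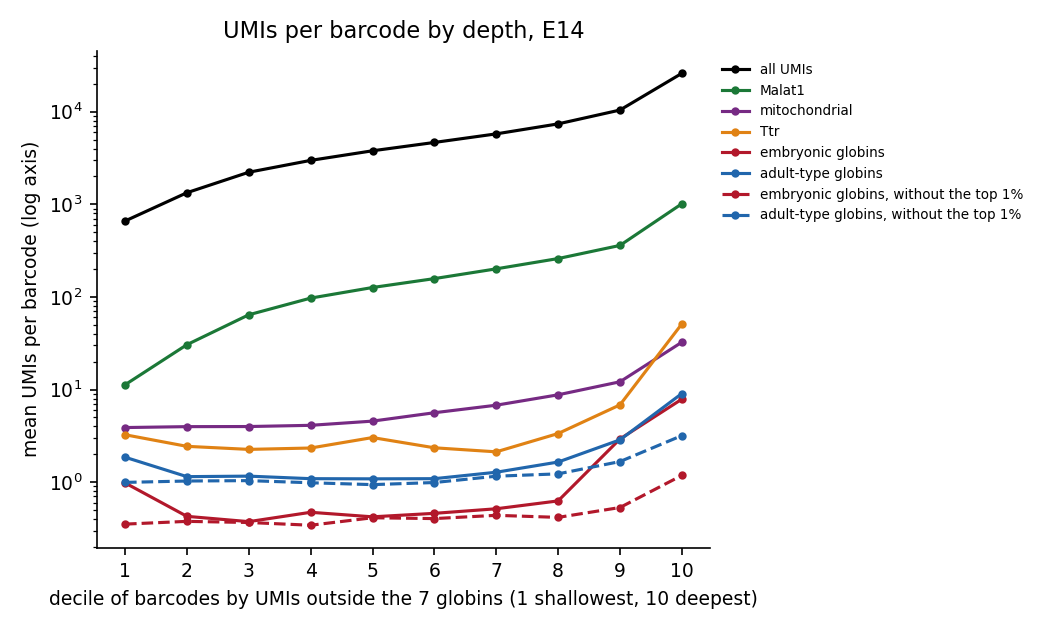
Mean UMIs per barcode (log axis) in deciles of E14 barcodes by their UMIs outside the 7 globins, for all UMIs, Malat1, mitochondrial genes, Ttr and the embryonic and adult-type globins, with the globins also drawn without the top 1% of barcodes (dashed). The dashed lines are nearly level up to the eighth decile, where all UMIs per barcode, drawn with all barcodes, have risen from 661 to 7394.

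Other genes of the erythroid programme were set beside the members by the same rule. Between the 91 barcodes and the others, 11.3% of 19984 genes were 2-fold or more higher in the 91 and 5.29% lower. Of the haem synthesis genes, 1 of 11 was higher, Slc25a37, which carries iron into mitochondria, at 24.7 against 2.72 CPM (9.08-fold, 6.56 to 12.4). It was higher within 3 of the 4 groups that held most of the 91, by 3.56-fold (1.64 to 7.46) in fibroblast or mesenchyme-like, 3.54-fold (1.62 to 7.92) in endothelial-like and 4.88-fold (1.84 to 11.8) in unnamed cluster 5 barcodes. In unnamed cluster 1 it had 5 UMIs in the top barcodes and 4 in the others. The ratio was 81.2 (17.5 to 409), from too few UMIs for a call. Alas2 was at 70.0 against 79.0 CPM. Its annotated locus overlaps Apex2 on the other strand.

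Of the erythroid membrane and maturation genes, 7 of 15 with enough UMIs were higher and 1 lower, with a median log2 ratio of 0.60 against 0.07 over all genes. Slc4a1, the anion exchanger of the red cell membrane, had 29 UMIs in the 91 barcodes and 37 in the 8945 others, 19.6-fold (11.6 to 32.7) higher in CPM. In unnamed cluster 1 the 12 top barcodes held 7 of its UMIs among 14171, and the 960 others 6 among 920372. Within the endothelial-like class its ratio was 4.06 (0.465 to 48.6) from 3 against 2 UMIs. Car2, a carbonic anhydrase, was 7.48-fold (5.53 to 9.97) higher, but within the endothelial-like class its ratio was 1.29 (0.855 to 1.91). Rhd was the lower gene of the list, with 4 against 212 UMIs and a ratio of 0.471 (0.127 to 1.22).

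Of the erythroid transcription factors, 3 of 7 were higher, namely Tal1 at 3.06-fold (2.03 to 4.45), Lmo2 at 2.81-fold (2.24 to 3.49) and Zfpm1 at 2.04-fold (1.30 to 3.07). Tal1 and Lmo2 are also used by endothelial cells. The endothelial-like class held 17 of the 91 barcodes, and no ratio of Tal1 or Lmo2 was taken within it. Gata1 and Klf1, the factors that define the lineage, had 2 UMIs each in the 91 barcodes. Their ratios to the others, 1.11 (0.130 to 4.25) and 0.648 (0.0771 to 2.42), allow no direction at this depth. None of the 10 globin switching regulators was 2-fold higher or lower there, among them Bcl11a, which silences embryonic globin genes, at 382 against 467 CPM. Of the globin and haem scavenging genes 3 of 6 were higher, including Hmox1, haem oxygenase 1, at 7.41-fold (4.19 to 12.5) and Cd163, the haemoglobin receptor of macrophages, at 9.98-fold (4.65 to 20.1). Within the endothelial-like class the ratio of Hmox1 was 0.902 (0.212 to 2.98). The 91 barcodes differed from the others in class and depth, as given above, and the part of these in the ratios was not tested except where a value within a group is given.

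Between E14 and the adult, 23.8% of all genes were 2-fold or more higher at E14 and 17.2% lower. Of the 10 switching regulators 6 were 2-fold or more higher at E14 and 1 lower. Lin28b, an RNA-binding protein of fetal blood formation, was 8.51-fold (7.61 to 9.54) higher, Sox6, a partner of Bcl11a, 7.41-fold (6.98 to 7.88) and Igf2bp1 132-fold (66.9 to 306). Zbtb7a was the one that was lower, at 22.6 against 45.8 CPM. These genes are also active in neural cells, and they were counted here in brain tissue. Of the 11 haem synthesis genes none was higher and 2 were lower, Cpox and Slc25a37. Of the erythroid membrane and maturation genes 8 of 16 were higher and 4 lower, and of the erythroid transcription factors 4 of 7 and 1. Of the 6 other globins 3 had at least 20 UMIs, of which none was higher and Cygb, cytoglobin, was lower at 3.45 against 15.6 CPM. Hbb-bh2 and Hbq1a had 0 UMIs at E14 and Hbq1b had 4.

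The genes whose levels followed the globins most closely over the 22 E14 clusters, some of which share a class name, differed between the types when all barcodes were kept (Pearson r of log2 CPM plus 1). For the summed embryonic globins these were Sparcl1 (r = 0.93), Col3a1 (0.91), Apod, Vtn, Col4a1, Col1a1, Itih5, Fth1, Gng11 and Col4a2 (0.88), among genes with at least 200 UMIs. Most encode matrix or vascular proteins, and 9 of the 10 were highest in the fibroblast or mesenchyme-like or endothelial-like cluster. For the adult-type globins these were Tmem256 (0.94), Rps12, Serf2, Uqcrh, Rplp1, Rpl21, Fth1, Rpl28, Rpl39 and Rpl34 (0.92), all highest in unnamed cluster 1. Of these, 6 encode ribosomal proteins. Fth1, the ferritin heavy chain that stores iron, was in both lists. Without the top 1% of barcodes, an alternative added after the data had been seen, the lists came together. The 10 genes most like the embryonic globins were then led by Rps29 (0.90), all highest in unnamed cluster 1, shared 0 genes with the list above and 7 with the 10 most like the adult-type globins. The r of the former embryonic list dropped to between 0.62 and 0.82. The clusters share 1 library, and these correlations are descriptions.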

How the data were processed

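Slide-tags single-nucleus RNA-seq of the E14 mouse brain and the adult mouse hippocampus was used, 1 library each. The deposited values are raw UMI counts by gene and barcode, which the authors obtained on mm10, introns included, with Cell Ranger 6.1.2 (adult) and 7.0.1 (E14) per the file headers. CellBender is named in the methods for the embryo, and the deposited counts were taken as values before it. No column belonged to another sample. Barcodes were kept from 500 UMIs upwards if mitochondrial genes gave less than 5% of them. Depth was 58923882 UMIs at E14 and 15346746 in the adult.

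Levels are summed UMIs per 1000000 (CPM) with exact Poisson intervals, shares have exact binomial (Clopper-Pearson) intervals, and ratios exact conditional intervals, all at 95% and for counting error only. A count of 0 was set to a floor of 3 counts per library or group. Barcodes are not replicates, so no test was made, and a fold of 2 over genes with at least 20 UMIs in the 2 sets together was used to call a difference. Clustering used Seurat 5.3.0 in R 4.3.3 (2000 variable genes without the 7 members, 30 principal components, resolution 0.8). A cluster was named from lists of 8 markers where at least 4 were found in at least 10% of its barcodes and 2-fold higher than elsewhere (pseudocount of 10 CPM), with its 10 leading genes not against the name. This scoring was set after clusters had been seen. Scrublet in scanpy 1.11.5 expected 0.8% doublets per 1000 barcodes. Its automatic threshold marked 4 barcodes (0.0443%) and was judged not to have worked, and doublets were kept in the main values. Thinning drew 1000 UMIs per barcode without replacement. The members, lists and comparisons were chosen with earlier results of these data known. Genes named are the members, the listed genes, the 10 most like the embryonic and the adult-type globins over clusters (at least 200 UMIs), and the 10 with the largest ratio in the top 1% of barcodes (at least 50 UMIs there). The functions were checked on simulated data of 32285 genes: for E14 over adult, 200 of 200 genes changed 4-fold were called in the right direction. The changed genes were drawn from those with at least 1000 UMIs, with Poisson counts for the library as a whole. The check therefore does not cover genes with fewer UMIs, such as Hba-a2 and Hbb-bh1, or UMIs gathered in a few barcodes.

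Positions and transcripts are from GENCODE vM21 and promoters from RefSeq. The alternatives were no barcode filter, 1000 UMIs, 1% mitochondrial UMIs, leaving out rich or likely doublet barcodes, other depth groups, gene minima, clusterings, thinning and top shares. Some listed genes are not reported here by name. Spatial positions and the other tissues of the study were not analysed here.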

Additional observations from a re-analysis of the deposited data

How the results depend on the processing

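No paired analysis was possible because each tissue has 1 library. The embryonic share at E14 (40.4%) was 26.7% without the top 1% of barcodes by globin UMIs, 41.5% without the highest Scrublet scores, 52.3% for beta-type and 14.2% for alpha-type globins. After the data had been seen, leaving out unnamed cluster 1 gave 41.1%, and leaving out the 5 barcodes highest in globin gave 32.5%. The globin level (572 CPM) was 533 at a minimum of 1000 UMIs, 566 at 1% mitochondrial, 285 without the top 1%, 614 without the highest Scrublet scores, 529 without unnamed cluster 1 and 434 without the 5 barcodes. The ratio of globin UMIs per barcode between the deepest and shallowest decile (5.96) was 10.4 at a minimum of 1000 UMIs, 6.25 at 1% mitochondrial, 3.24 without the top 1%, 12.8 without unnamed cluster 1, 3.58 without the 5 barcodes, 4.65 with 4 depth groups and 6.46 with the members counted in depth. Between the deepest and shallowest of 4 depth groups within a class it was 1.75 in Cajal-Retzius-like, 7.19 in choroid plexus-like, 3.16 in cortical excitatory-like, 48.1 in endothelial-like, 23.0 in fibroblast or mesenchyme-like, 1.40 in forebrain GABAergic-like, 3.15 in microglia or macrophage-like and 2.33 in thalamic-like barcodes. The 48.1 and 23.0 rest on the top 1%, without which they were 4.59 and 2.59. The counts of genes 2-fold higher at E14 stayed within 1.5 times of 4960 under all 5 alternatives. The fibroblast or mesenchyme-like level was 3226 CPM with 4000 variable genes, and the embryonic share of the top barcodes was 55.8% for the top 0.5% and 50.9% for the top 2%. The share of barcodes with a globin UMI was 41.8% thinned to 2000 UMIs. Depth limits Hbb-bh1 (51 UMIs), Hba-a2 and all adult values.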

Other observations

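The genes with the largest ratio between the 91 barcodes richest in globin and the other E14 barcodes, the globins left out, were led by Ptgds, prostaglandin D synthase of the meninges, at 778 against 22.6 CPM (34.4-fold, 32.0 to 37.04). Its UMIs came from 26 of the 91 barcodes, with 382 in a single one. H19, an imprinted fetal RNA, was 21.6-fold (19.7 to 23.6) higher with 459 of its 922 UMIs in 1 barcode. Wnt6, Aldh1a2, which makes retinoic acid in the meninges, Sh3tc2, Prnd, Osr1, Ppp1r15a, Gjb6 and Emp3 followed at 11.3-fold to 22.7-fold. Within the fibroblast or mesenchyme-like class alone, the 25 top barcodes were still higher than the 367 others in Ptgds (13.97-fold, 12.8 to 15.3), H19 (6.60-fold, 5.95 to 7.32) and Aldh1a2 (4.57-fold, 3.59 to 5.80). In the same class Cd163 had 12 UMIs in the 25 top barcodes and 1 in the 367 others, a ratio of 69.1 (10.2 to 2952), while in the endothelial-like class it had 0 UMIs in both sets. Malat1 was at 34074 against 35435 CPM in the fibroblast or mesenchyme-like class and at 49859 against 35227 in the endothelial-like class.

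In unnamed cluster 1 the 12 top barcodes had 49044 Malat1 CPM against 16367 in its 960 other barcodes, and 1552 against 3788 of Ttr. These levels are pooled over UMIs. A single barcode held 6899 of the 14171 UMIs of the 12 top barcodes, whose median was 614. The levels therefore do not describe the shallow top barcodes as a set, and the part of that barcode in them was not tested.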
